A study of Homo sapiens with 23 samples.

Results

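The 49 genes described here are the 13 protein genes of the mitochondrial DNA and 36 nuclear genes for subunits of respiratory complex I, taken from a fixed list by gene symbol, and all 49 were found in each of the 3 count tables of the series. These tables list 60683 genes for the LNCaP cells with altered ONECUT2, 58219 for the LAPC4 cells and 54648 for the drug experiment. The study measured RNA in 23 libraries of LNCaP and LAPC4, both androgen-sensitive prostate adenocarcinoma lines, after the transcription factor ONECUT2 (written OC2 in the labels) was raised, lowered or combined with drugs. The question put to these genes was whether the transcripts of the mitochondrial and nuclear genomes, whose products meet in complex I, moved together.

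In LNCaP the labels give a control group, an OC2 overexpression group (OC2 OE), a group with a control short hairpin RNA (shCon) and a group with a hairpin against OC2 (shOC2), with 2 libraries each. LAPC4 carried an empty vector or OC2 OE, with 3 libraries each, and was grown with the synthetic androgen R1881 at 1 nM. In the drug experiment LNCaP received vehicle, the androgen receptor blocker enzalutamide at 10 µM, or enzalutamide at 10 µM with an OC2 inhibitor at 10 µM, for 7 days in all 3 arms and with 3 libraries each. The labels do not say whether the libraries of a group came from separate cultures or clones, so the p-values measure the spread between these libraries, which may be technical. Nor do they say whether the LNCaP control and OC2 OE libraries were grown and prepared together with the shCon and shOC2 libraries. The sample descriptions name these sets in different patterns, the hairpin libraries sharing a prefix with the vehicle and combination libraries. The control columns of the LNCaP table bear names that also resemble the titles of the vehicle samples of the drug experiment. They were read as the LNCaP control group because vehicle has columns in the drug table, and every value against control rests on that reading.

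Complex I takes electrons from NADH in the mitochondrial matrix, passes them along iron-sulfur clusters in its matrix arm to ubiquinone, and pumps protons through its membrane arm. Its 7 ND subunits in the membrane arm are made inside the mitochondrion from mitochondrial DNA, and the other subunits are made in the cytosol and imported. The mitochondrial DNA also encodes cytochrome b of complex III (MT-CYB), the catalytic core of complex IV (MT-CO1, MT-CO2 and MT-CO3) and subunits of the ATP synthase (MT-ATP6 and MT-ATP8). It is transcribed as long RNAs from both strands that are cut into gene-sized pieces, and MT-ND6 is the only protein gene read from the opposite strand. Secretory prostate epithelium is known for an unusual mitochondrial metabolism in which citrate is exported, and prostate cancer cells for a return to citrate oxidation.

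Some of these genes share bases, which bears on how their reads were counted. MT-ATP8 (chrM:8366-8572) and MT-ATP6 (chrM:8527-9207) overlap by 46 bases on the same strand, and MT-ND4L and MT-ND4 by 7 bases. The ends of both pairs are shown because the 3 count tables treat the first pair very differently. Sequences are from hg38, plus strand, 5′ to 3′, with the bases that belong to both genes in capitals.
MT-ATP8, 3 prime end, chrM:8497-8572: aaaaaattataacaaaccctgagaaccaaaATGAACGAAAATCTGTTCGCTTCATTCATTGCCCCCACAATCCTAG
MT-ATP6, 5 prime end, chrM:8527-8602: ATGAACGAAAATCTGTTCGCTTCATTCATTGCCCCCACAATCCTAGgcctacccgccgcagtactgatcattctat
MT-ND4L, 3 prime end, chrM:10730-10766: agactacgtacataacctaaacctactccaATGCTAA
MT-ND4, 5 prime end, chrM:10760-10796: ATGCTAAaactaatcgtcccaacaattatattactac

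The LNCaP libraries held between 20963995 and 23272089 counts, the LAPC4 libraries between 28586064 and 30465978, and those of the drug experiment between 22615561 and 28241076. ONECUT2 itself checked the labels. Its level, as CPM, a count divided by the TMM-scaled library size and given per 1e+06 counts, was 24.6 and 30.7 in LNCaP control against 332 and 304 in OC2 OE, and 20.4 and 21.2 in shCon against 12.1 and 12.2 in shOC2. In LAPC4 it was 13.3, 17.1 and 16.2 with vector and 968, 805 and 913 with OC2 OE. The androgen receptor target KLK3 fell by 4.61 on the log2 scale (adjusted p = 8.35e-06) under enzalutamide with the OC2 inhibitor. All 10 prostate epithelial markers had counts in every group, while the markers of other cell types summed to between 5.71 and 56.9 CPM, with CD3E and DES at 0 in all 4 LNCaP groups of the first table. Some of the other markers had counts and moved. In shOC2 against shCon, CD68 rose from 4.41 to 22.6 CPM (log2 fold change 2.36), while VWF fell by 1.64 and COL1A1 by 0.50, from 31.7 to 22.2 CPM. In LAPC4, COL1A2 rose from 0.0458 CPM with vector to 8.75 CPM with OC2 OE (log2 fold change 7.45). In the LNCaP table and the vehicle and combination columns, the deposited values are estimated counts that need not be whole. In the LAPC4 table and the enzalutamide columns they are whole counts, so the enzalutamide values were counted in another way than the vehicle and combination values of the same table. Replicates of LAPC4 vector were uneven, replicate 3 standing apart from the other two over all genes (chi-square per gene of 36.1 and 20.2, against 4.68 between replicates 1 and 2). Replicate 2 of the combination likewise stood apart from replicates 1 and 3 (16.4 and 16, against 3.35 between those), and the first enzalutamide column from the others (77.1 and 51.7, against 22.4). Without LAPC4 vector replicate 3, all 13 mitochondrial genes were still called lower with OC2 OE, with 15 nuclear genes called higher and 7 lower. Without combination replicate 2, no mitochondrial gene was called against vehicle, and 2 nuclear genes were higher and 8 lower.

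The 13 mitochondrial genes took 8.88% and 8.46% of all counts in LNCaP control and 8.50% and 8.48% in LNCaP OC2 OE. In LAPC4 they took 7.95%, 8.23% and 8.42% with vector and 3.58%, 2.98% and 3.47% with OC2 OE. Every LAPC4 OC2 OE library was thus below every vector library, while both LNCaP OC2 OE values lay between the 2 control values. The shares were 3.40% and 2.77% in shCon and 2.97% and 3.42% in shOC2, which overlap. They were 8.42%, 7.84% and 8.36% with vehicle, 7.42%, 7.62% and 7.41% with enzalutamide and the OC2 inhibitor, and 3.26%, 1.47% and 3.24% in the enzalutamide columns. The 36 nuclear complex I genes together stayed between 0.352% and 0.373% over all 8 libraries of the LNCaP table and between 0.218% and 0.242% over the 6 LAPC4 libraries. The summed counts of the mitochondrial genes were therefore 36.1 ± 2.70 times (SD, n = 3) those of the nuclear ones in LAPC4 vector and 14.3 ± 0.983 times (n = 3) in LAPC4 OC2 OE. The same ratio was 23.8 in LNCaP control and 23.7 in LNCaP OC2 OE (n = 2 each). These ratios are to be read within a line. The LAPC4 table was counted in another way, and 7 of the nuclear genes had few counts there, as described further on. In bulk RNA, fewer cells of a kind and less of an RNA per cell cannot be told apart.

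**Figure D1:**
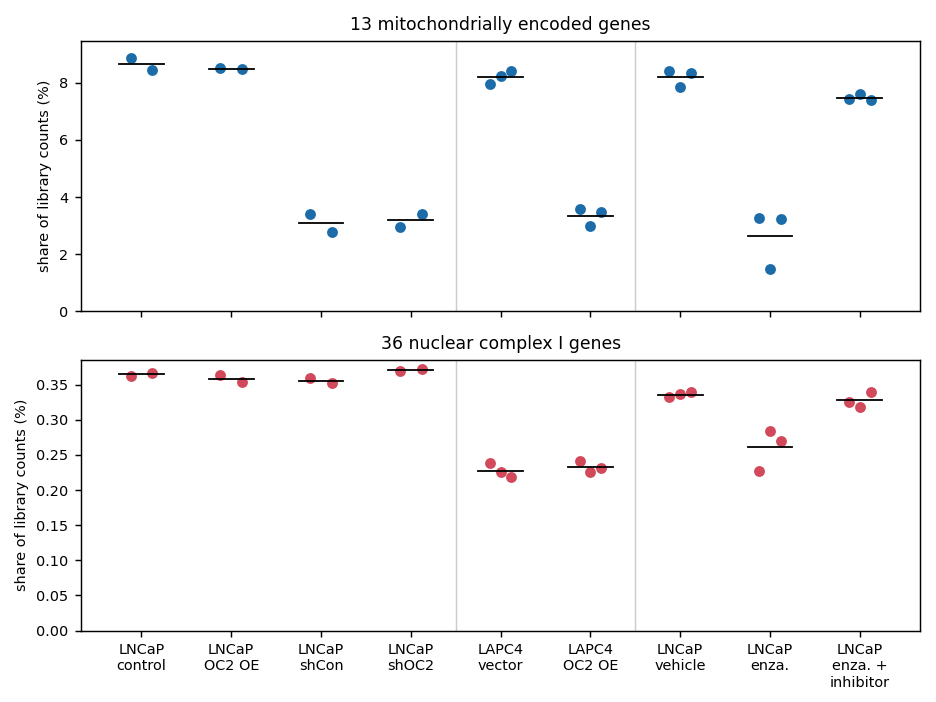
Share of all counts of a library (%) from the 13 mitochondrially encoded genes (upper panel) and the 36 nuclear complex I genes (lower panel). Points are libraries, bars are group means, and grey lines divide the 3 count tables. The mitochondrial share lies between 1.47% and 3.58% in shCon, shOC2, LAPC4 OC2 OE and the enzalutamide columns and between 7.41% and 8.88% in the other groups, while the nuclear share is level within the LNCaP and LAPC4 tables.

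In LAPC4 all 13 mitochondrial genes fell with OC2 OE, by 1.03 (MT-ATP8) to 1.59 (MT-ND4) on the log2 scale, which is a 2.04-fold to 3.02-fold fall. Of all 16904 genes tested in this comparison, 29.0% were lower and 32.1% higher at an adjusted p under 0.05. The median log2 fold change was -1.30 over the 13 genes, 0.07 over the 36 nuclear genes and 0.00 over all genes (0.003). Leaving out any single library kept the median of the 13 between -1.34 and -1.19, and all 13 were called lower under each alternative listed in the processing section.

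MT-ND4, a proton-pumping subunit of the membrane arm, stood at 14120, 15180 and 16360 CPM with vector and at 5532, 4526 and 5061 CPM with OC2 OE. The groups were far apart, and the fall was 3.02-fold (log2 fold change -1.59, SE 0.11, adjusted p = 1.29e-06). MT-ND5, the pump at the far end of the arm, went from 5083, 5287 and 5962 CPM to 1945, 1742 and 1984 CPM. Its libraries did not overlap either, and it fell 2.88-fold (SE of the log2 change 0.10, adjusted p = 6.80e-07).
MT-ND1, which borders the ubiquinone site, read 3976, 3660 and 4084 CPM with vector and 1694, 1389 and 1627 CPM with OC2 OE. MT-ND2, another pump, read 3990, 4192 and 5789 CPM against 2195, 1857 and 1944 CPM, and MT-ND4L read 1697, 1815 and 1432 CPM against 601, 573 and 686 CPM. All 3 were lower in every OC2 OE library. MT-ND3 fell 2.15-fold, the smallest fall among the 7 ND genes. MT-ND6, on the opposite strand, had 63.3, 84.4 and 52.5 CPM with vector and 18.3, 27.7 and 32.0 CPM with OC2 OE, and its fall of 1.36 (SE 0.21, adjusted p = 0.000349) lay inside the range of the genes on the other strand. MT-ND6 amounted to 0.0817% of the other 12 genes with vector and 0.0790% with OC2 OE. In the LNCaP table, counted in another way, the same share was higher, at 0.350% to 0.606%.

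The mitochondrial genes of the other complexes moved with them. MT-CO1, the catalytic subunit of cytochrome oxidase, went from 18230, 19050 and 16640 CPM to 8558, 7359 and 8776 CPM, a 2.18-fold fall. MT-CO2 fell 2.49-fold and MT-CO3, its partner subunit, 2.29-fold. MT-CYB fell 2.47-fold (adjusted p = 1.35e-05) and MT-ATP6, the proton channel subunit of the ATP synthase, 2.35-fold. MT-ATP8 had only 16.6, 23.01 and 24.0 CPM with vector and 11.9, 10.0 and 9.22 CPM with OC2 OE. Both mitochondrial ribosomal RNAs fell as well, MT-RNR2 by 1.18 and MT-RNR1 by 0.95 (adjusted p = 4.57e-05 and 9.87e-06).

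The nuclear complex I genes of LAPC4 did not follow. With OC2 OE 12 of the 36 were higher (33.3% of them) and 7 lower, against the 32.1% and 29.0% of all genes given above. Of those calls, 7 higher and 5 lower were made under every alternative. Without OC2 OE replicate 1 the count was 12 in place of 19.
NDUFB3, a small membrane-arm subunit, read 25.2, 22.4 and 19.9 CPM with vector and 40.7, 32.2 and 35.9 CPM with OC2 OE. All OC2 OE libraries were higher, and the rise was 1.61-fold (log2 fold change 0.69, SE 0.11, adjusted p = 0.000489). NDUFA3, also in the membrane arm, rose by 0.55, NDUFS4, which supports the NADH-oxidising end of the matrix arm, by 0.51, NDUFA12, a matrix-arm subunit, by 0.46, and NDUFB11 by 0.42. NDUFC2 rose by 0.49 (adjusted p = 0.035), a call lost without OC2 OE replicate 1 or 2 or vector replicate 1 or 2 (adjusted p = 0.143, 0.0635, 0.0985 and 0.106).
Among the falls, NDUFV1, the core subunit that binds FMN and oxidises NADH, went from 329, 312 and 273 CPM to 228, 215 and 225 CPM (log2 fold change -0.45, SE 0.08, adjusted p = 0.000712). NDUFB4, of the membrane arm, fell by 0.29, NDUFV3 by 0.24, and NDUFA5 by 0.26. The last call was lost without OC2 OE replicate 1 or 3 or vector replicate 1 (adjusted p = 0.105, 0.103 and 0.0522). NDUFA13, also known as GRIM-19, fell by 1.26 and NDUFV2, an iron-sulfur core subunit, by 1.23, but both rested on few counts in this table, as described further on: NDUFV2 stood at 0.923, 0.930 and 1.22 CPM with vector and 0.396, 0.543 and 0.367 CPM with OC2 OE.

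**Figure D2:**
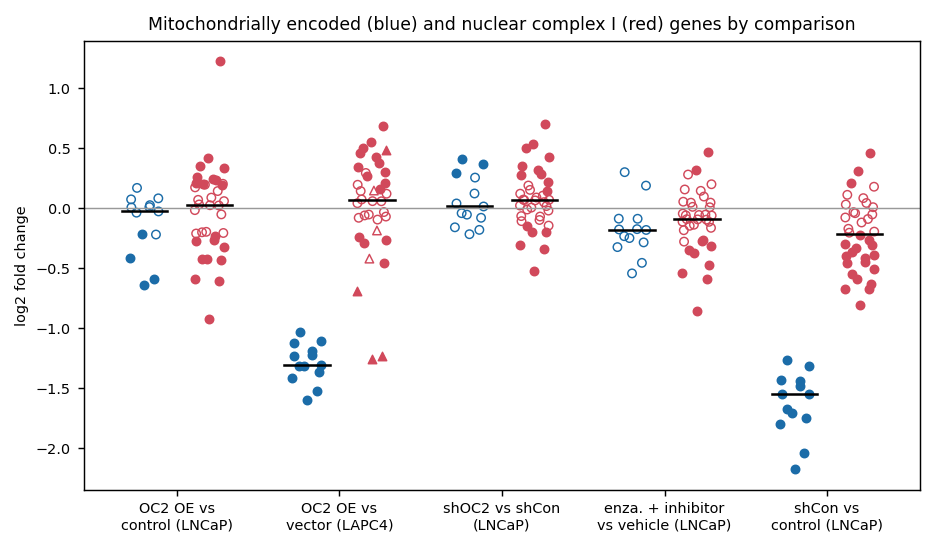
Log2 fold changes of the 13 mitochondrially encoded genes (blue) and the 36 nuclear complex I genes (red) in 5 comparisons. Filled symbols passed an adjusted p of 0.05, open ones did not, black bars are medians, and triangles mark nuclear genes with few counts in the LAPC4 table. The blue points lie wholly below the line at 0 for LAPC4 OC2 OE and for shCon against control, where the red medians are 0.07 and -0.21.

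In LNCaP, OC2 OE left most mitochondrial genes near their control level and lowered 4 of them, MT-ND2, MT-ND3, MT-ATP8 and MT-ATP6, with none higher. Over all 17046 genes, 29.3% were lower and 31.6% higher. The median log2 fold change of the 13 genes was -0.03 and that of the nuclear genes 0.03, beside 0.02 over all genes. MT-ND2 stood at 9450 and 9044 CPM in control and at 7315 and 6730 CPM in OC2 OE. Both OC2 OE libraries were lower, by 0.41 on the log2 scale (SE 0.07, adjusted p = 0.000405). MT-ND3, a small subunit beside the ubiquinone site, read 1807 and 1686 CPM against 1097 and 1174 CPM, and fell by 0.64 (SE 0.07, adjusted p = 3.62e-05). MT-ATP8 read 264 and 304 CPM against 177 and 206 CPM and fell by 0.59 (SE 0.10, adjusted p = 0.000520). MT-ATP6 read 6184 and 6281 CPM against 5501 and 5361 CPM, a fall of 0.21 with an adjusted p of 0.0102 that became 0.0677 without OC2 OE replicate 1 and 0.126 without OC2 OE replicate 2. The first 3 falls were called under every alternative.
The remaining 9 genes had log2 fold changes between -0.22 (MT-ND6) and 0.17 (MT-ND1, adjusted p = 0.0611). MT-CO1 read 21040 and 19110 CPM in control and 20140 and 20670 CPM in OC2 OE, so the groups overlapped. The ribosomal RNA MT-RNR1 fell by 0.99, from 6256 and 7425 CPM to 3395 and 3554 CPM, and MT-RNR2 by 0.30 (adjusted p = 6.24e-06 and 0.0203).

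Of the nuclear complex I genes, 10 were higher and 10 lower in LNCaP OC2 OE (27.8% of them each way), near the 31.6% and 29.3% of all genes. Without OC2 OE replicate 1 the count of 20 was 8, without OC2 OE replicate 2 it was 12 and without control replicate 2 it was 13. The 8 that were called under every alternative were NDUFA8, NDUFAB1, NDUFB4, NDUFB5, NDUFB9 and NDUFB10 among the falls, and NDUFB8 and NDUFC2 among the rises.
NDUFB4 (hg38 chromosome 3, 120596309 to 120602500, plus strand), a membrane-arm accessory subunit, read 336 and 345 CPM in control and 181 and 182 CPM in OC2 OE. The replicates nearly coincided, and the fall was 1.90-fold (log2 fold change -0.92, SE 0.07, adjusted p = 2.32e-06). NDUFB10, which reaches the intermembrane space side of the membrane arm, read 294 and 323 CPM against 201 and 209 CPM and fell by 0.61 (adjusted p = 8.55e-05). NDUFB5 read 86.0 and 89.5 CPM against 59.8 and 58.4 CPM and fell by 0.59. NDUFB9 fell by 0.43, NDUFA8 by 0.42, and NDUFAB1, the mitochondrial acyl carrier protein that sits in both arms, by 0.42.
NDUFC2 (chromosome 11, 78068304 to 78080219, minus strand), a membrane-arm accessory subunit, had the largest rise of the 36, from 135 and 121 CPM to 305 and 299 CPM, which is 2.34-fold (log2 fold change 1.23, SE 0.08, adjusted p = 8.63e-07). Its exons overlap those of the readthrough gene NDUFC2-KCTD14 on the same strand, which stood at 1.53 CPM in control and 1.57 CPM in OC2 OE. NDUFB8 read 50.7 and 53.7 CPM against 70.6 and 70.4 CPM and rose by 0.42. The iron-sulfur core subunits NDUFS7 and NDUFS8, which hand electrons on toward ubiquinone, rose by 0.36 and 0.34. Without OC2 OE replicate 1 their adjusted p was 0.0966 and 0.0710, and NDUFS7 was also lost without control replicate 2 (0.0859). NDUFB7 rose by 0.26 and NDUFA13 by 0.25, and without OC2 OE replicate 1 their adjusted p was 0.173 and 0.295. NDUFB7 was also lost without OC2 OE replicate 2 (0.0677) or control replicate 2 (0.131), and NDUFA13 without control replicate 1 (0.0801) or 2 (0.0973). By position in the complex, 4 of 15 matrix-arm genes were higher and 3 lower, and 6 of 20 membrane-arm genes were higher and 6 lower.

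**Figure D3:**
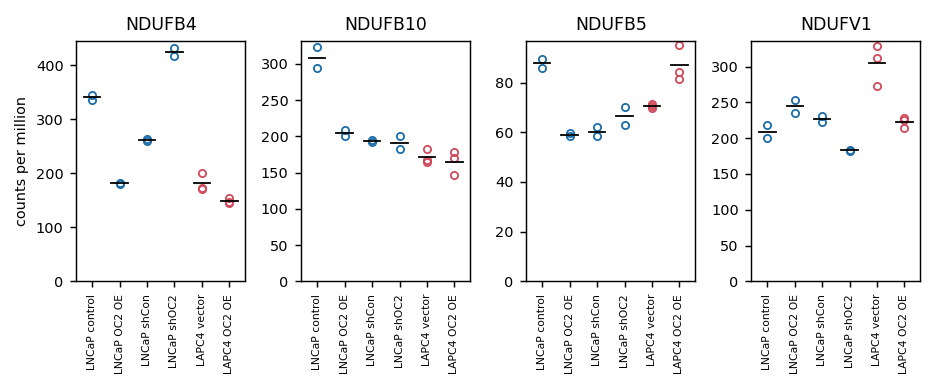
Levels of 4 nuclear complex I genes (CPM, axis from 0) in each library of the LNCaP table (blue) and the LAPC4 table (red), with group means as bars. The tables were counted and scaled separately, so levels are to be read within a colour. Among the LNCaP groups NDUFB4 is lowest in OC2 OE and highest in shOC2, and NDUFB5 and NDUFV1 move in opposite directions with OC2 OE in the 2 lines.

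The effect of OC2 OE on the mitochondrial genes differed between the lines. The test of the difference, on fold changes formed within each table, called 12 of the 13 genes more negative in LAPC4, beside 24.1% of all 19633 genes tested (25.4% were more positive). The differences ran from -0.47 (MT-ND3, adjusted p = 0.00214) to -1.68 (MT-ND4, SE 0.14, adjusted p = 4.86e-07). MT-ATP8 alone did not pass (-0.45, SE 0.20, adjusted p = 0.0876). For nuclear complex I genes the same test called 11 more positive and 7 more negative in LAPC4, or 30.6% and 19.4% of them.
Several nuclear genes went opposite ways in the 2 lines. The test of the difference is built from the same effects by which these genes were picked, so passing it is no separate evidence. NDUFB5 was 69.9 to 71.4 CPM with LAPC4 vector and 81.6, 95.0 and 84.2 CPM with OC2 OE, a rise of 0.30 where LNCaP had shown a fall (difference 0.89, SE 0.11, adjusted p = 1.77e-05). NDUFB9 rose by 0.21 in LAPC4, a call lost without any one of 5 libraries: OC2 OE replicate 1, 2 or 3 (adjusted p = 0.0923, 0.0667 and 0.0523) or vector replicate 1 or 2 (0.0586 and 0.1996). Its difference between the lines was 0.63 (adjusted p = 0.000437). NDUFV1 rose by 0.21 in LNCaP and fell in LAPC4 (difference -0.66, adjusted p = 0.000329), the LNCaP rise being lost without OC2 OE replicate 1 or 2 or control replicate 2 (adjusted p = 0.321, 0.0959 and 0.152). NDUFB4 fell in both lines, by less in LAPC4 (difference 0.64, SE 0.11, adjusted p = 0.000283).

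**Figure D4:**
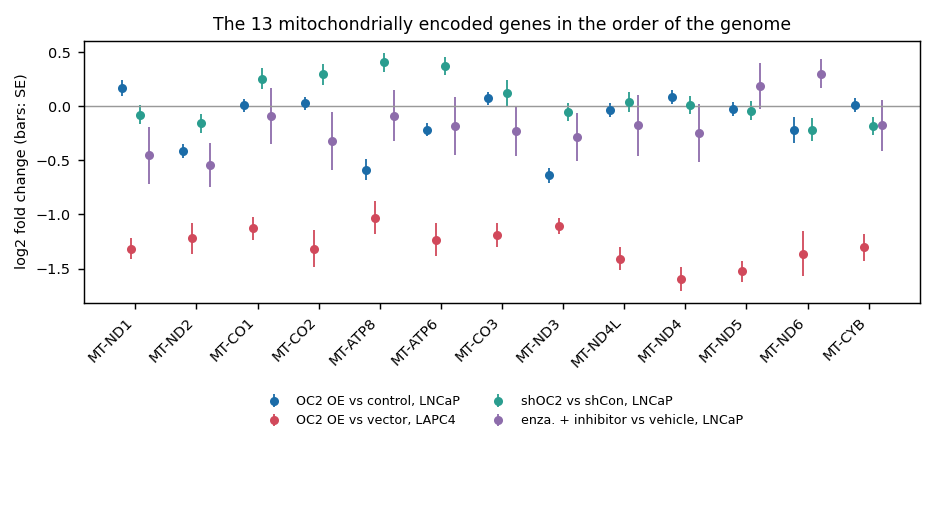
Log2 fold change of each mitochondrially encoded gene, in genome order, with its standard error, in 4 comparisons. The LAPC4 points (red) all lie between -1.59 and -1.03, while the LNCaP OC2 OE points (blue) depart from 0 mainly at MT-ND2, MT-ATP8 and MT-ND3 and the knockdown points (green) at MT-CO2, MT-ATP8 and MT-ATP6. Purple points are enzalutamide with the OC2 inhibitor against vehicle, highest at MT-ND6 and lowest at MT-ND2.

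Lowering OC2 in LNCaP moved 3 mitochondrial genes past the threshold, MT-CO2, MT-ATP6 and MT-ATP8, all higher, while 27.3% of all 16585 genes were higher and 26.8% lower. None of the 3 calls held without either shOC2 library. MT-ATP6 read 2082 and 1756 CPM in shCon and 2325 and 2623 CPM in shOC2, a rise of 0.37 (SE 0.09, adjusted p = 0.00422). Its adjusted p was 0.0810 without shOC2 replicate 1 and 0.173 without shOC2 replicate 2. MT-ATP8 read 115 and 96.9 CPM against 131 and 149 CPM, a rise of 0.41 (adjusted p = 0.00314, or 0.0696 and 0.155 without either shOC2 library). MT-CO2 rose by 0.30 (adjusted p = 0.0255, and 0.124 without shCon replicate 2, 0.134 and 0.374 without shOC2 replicate 1 or 2). Without shCon replicate 1 the count was 5 higher, with MT-CO1 and MT-CO3 added, and without shCon replicate 2 it was 2 higher and 4 lower, the falls being MT-ND1, MT-ND2, MT-ND6 and MT-CYB. The median over the 13 genes was 0.02, and -0.10 to 0.14 without single libraries. No ND gene passed with all libraries, their log2 fold changes running from -0.22 to 0.04.

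Among nuclear complex I genes, 10 of 36 (27.8%) were higher in shOC2 and 6 (16.7%) lower, and without shOC2 replicate 2 the count was 10 in place of 16. NDUFB4 had the largest rise, from 259 and 263 CPM in shCon to 431 and 417 CPM in shOC2, which is 1.63-fold (log2 fold change 0.71, SE 0.05, adjusted p = 2.26e-06). NDUFA2, a matrix-arm subunit, read 48.1 and 49.1 CPM against 71.7 and 68.9 CPM and rose by 0.54. NDUFA3 rose by 0.50, NDUFB11 by 0.43, NDUFA7 by 0.36 and NDUFA1, a small membrane-arm subunit, by 0.32, and these calls were made under every alternative. NDUFS6, a zinc-binding subunit of the matrix arm, read 68.8 and 63.4 CPM against 42.4 and 49.01 CPM and had the largest fall (log2 fold change -0.53, SE 0.08, adjusted p = 0.000312). NDUFV1 read 232 and 223 CPM against 183 and 184 CPM and fell by 0.30. NDUFA12 fell by 0.34, with an adjusted p of 0.0654 without shOC2 replicate 2. NDUFA8 and NDUFC1 each fell by 0.20 and NDUFB7 by 0.15. Of these, NDUFA8 was lost without shCon replicate 1 (adjusted p = 0.0787) or either shOC2 library (0.0875 and 0.112), NDUFC1 without either shCon library (0.0614 and 0.0609) or shOC2 replicate 1 (0.137), and NDUFB7 without any single library (0.0793 to 0.166).

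The effects of raising and lowering OC2 in LNCaP share no library, so they can be set against each other. NDUFB4, NDUFB9 and NDUFAB1 were lower with OC2 OE and higher with shOC2, and NDUFB7 and NDUFV1 the reverse. NDUFA8 and NDUFS6 were lower, and NDUFA10 and NDUFB11 higher, in both. Several of these calls were weak: NDUFAB1 in shOC2 was lost without any single library (adjusted p = 0.0926 to 0.203), NDUFA10 in OC2 OE likewise (0.0790 to 0.360), and NDUFS6 in OC2 OE without OC2 OE replicate 1 or 2 or control replicate 2 (0.0928, 0.173 and 0.129). NDUFB11 in OC2 OE was lost without the same 3 libraries (0.314, 0.130 and 0.167), and NDUFA10 in shOC2 without shOC2 replicate 2 (0.0938). The test of the difference called NDUFB4 most strongly (-1.61, SE 0.08, adjusted p = 6.54e-09), and NDUFB9 (-0.68), NDUFAB1 (-0.54), NDUFB7 (0.43) and NDUFV1 (0.53) also passed it. It is built from the same effects by which these genes were picked, so passing it is no separate evidence. NDUFC2 differed by 1.14 (adjusted p = 4.47e-07), having been 177 and 176 CPM in shCon and 190 and 188 CPM in shOC2. Of the mitochondrial genes, MT-ND3 (-0.56), MT-ATP6 (-0.57) and MT-ATP8 (-0.97) passed. Over the nuclear genes 9 differences were positive and 10 negative, beside 29.4% and 26.3% of all 18162 genes.

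The promoter of NDUFB4, called in opposite directions when OC2 was raised and lowered, is shown with the core motif of NRF1, a known regulator of nuclear genes for respiratory subunits, in capitals. The window runs from 250 bases before to 50 bases after the RefSeq start (GRCh38.p14, plus strand, chr3:120596086-120596385).
NDUFB4 promoter: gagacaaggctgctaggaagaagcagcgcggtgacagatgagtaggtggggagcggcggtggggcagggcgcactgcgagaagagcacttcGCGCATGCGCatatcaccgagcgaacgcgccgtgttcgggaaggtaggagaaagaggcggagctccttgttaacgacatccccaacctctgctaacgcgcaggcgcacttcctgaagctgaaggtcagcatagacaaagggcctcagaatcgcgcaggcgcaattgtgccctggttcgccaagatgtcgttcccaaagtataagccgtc
The motif GCGCATGC and its reverse complement GCATGCGC overlap there, starting 159 and 157 bases before the start. Promoters from RefSeq were matched for 32 of the 36 nuclear genes, and 15.6% of them held this motif (NDUFA6, NDUFA8, NDUFB4, NDUFS6 and NDUFS7), beside 3.05% of all 35116 promoters. The short ONECUT core ATTGAT or its reverse ATCAAT stood in NDUFA11, NDUFB11, NDUFC1, NDUFS6 and NDUFS8 (15.6%, beside 6.26% of all promoters), and ATCGAT in none (0.763% of all promoters). It was not among the letters of the NDUFB4 window. The YY1 core AAGATGGCG was in NDUFA6, NDUFA7, NDUFA9, NDUFS4 and NDUFS7 (15.6%, beside 1.75%) and the ETS core CCGGAAG in NDUFA1, NDUFA13, NDUFB7, NDUFS1 and NDUFS3 (15.6%, beside 10.3%). Both strands were searched for each, and a match describes letters only.

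The 2 reference groups of LNCaP differed from each other in these genes. All 13 mitochondrial genes were lower in shCon than in control, by 1.26 (MT-ND6) to 2.18 (MT-ND3), beside 28.1% of all 16790 genes lower and 28.3% higher. MT-ND3 read 1807 and 1686 CPM in control and 412 and 364 CPM in shCon, a 4.52-fold difference (adjusted p = 1.46e-07). MT-CO1 read 21040 and 19110 CPM against 7686 and 6082 CPM, 2.92-fold apart. MT-RNR1 was lower by 2.74 and MT-RNR2 by 1.54. Of the nuclear complex I genes, 18 were lower and 3 higher (NDUFC2 by 0.46, NDUFS1, an iron-sulfur core subunit, by 0.31, and NDUFV3 by 0.21), with a median of -0.21. NDUFS1 lost its call without shCon replicate 1 (adjusted p = 0.0519) and NDUFV3 without any single library (0.0547 to 0.214). NDUFA5 had the lowest value (-0.81), followed by NDUFB10 (-0.68) and NDUFA6 (-0.67). ONECUT2 itself was lower in shCon than in control by 0.41. Set against shCon in place of control, OC2 OE had all 13 mitochondrial genes higher (0.85 for MT-ATP8 to 1.84 for MT-ND4), with 33.2% of all 17182 genes higher and 30.8% lower. Here 21 nuclear genes were higher and 3 lower (NDUFB4 by 0.53, NDUFV2 by 0.45 and NDUFAB1 by 0.15), and the count of 24 was 14 without OC2 OE replicate 1 and 14 without shCon replicate 2. NDUFAB1 lost its call without any single library (adjusted p = 0.0751 to 0.121). These 2 comparisons share the OC2 OE libraries. MT-ND2, MT-ND3, MT-ATP6 and MT-ATP8 were lower against control and higher against shCon, while NDUFB4 was lower against both. Hairpin treatment and any separate handling of the 2 sets of libraries cannot be told apart here.

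Under enzalutamide with the OC2 inhibitor, no mitochondrial gene passed the threshold against vehicle in edgeR's fit over the 3 drug arms, beside 23.2% of all 17438 genes higher and 23.6% lower. At an unadjusted p under 0.05 there were 2, MT-ND2 lower and MT-ND6 higher, and DESeq2 called 1, MT-ND2. That fit shares its estimate of the spread with the enzalutamide columns, in which the 13 genes varied widely (1.47% to 3.26% of counts). With the vehicle and combination arms fitted alone, 11 of the 13 passed, 9 lower and 2 higher. The shares of all genes given above belong to the fit over the 3 arms, and none is given for the pair alone. MT-ND2 read 8100, 7347 and 7737 CPM with vehicle and 4981, 5853 and 5089 CPM with the combination. All combination libraries were lower, by 0.54 (SE 0.20, adjusted p = 0.0510), and by 0.54 with an adjusted p of 0.000196 in the fit of the pair alone. MT-ND1 read 8211, 7847 and 8102 CPM against 5258, 6470 and 5908 CPM (log2 fold change -0.45, adjusted p = 0.183 in the first fit and 0.000736 in the second).
MT-ND6 read 548, 529 and 554 CPM with vehicle and 655, 649 and 707 CPM with the combination (log2 fold change 0.30, adjusted p = 0.0834, and 0.31 with 0.00110 in the pair alone). MT-ND5, which lies next to MT-ND6 on the genome, read 3763, 3839 and 3771 CPM against 4335, 4451 and 4189 CPM (0.19, adjusted p = 0.488, and 0.20 with 0.0104 in the pair alone). As a share of the other 12 genes, MT-ND6 was 0.595%, 0.612% and 0.607% with vehicle and 0.860%, 0.821% and 0.925% with the combination, without overlap. MT-RNR1 rose by 0.49 (adjusted p = 0.0347), and both ribosomal RNAs together went from 27.7% to 33.9% of the 13-gene sum with vehicle to 40.2% to 44.4% with the combination. MT-CO1 read 20520, 20240 and 20740 CPM against 20200, 19110 and 18610 CPM, lower by a narrow margin and uncalled in both fits. Only MT-ATP8 had overlapping groups among the 13, and the share of all genes without overlap is not given here.

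Of the nuclear complex I genes, 9 of 36 were lower under the combination, near the 23.6% of all genes, and 2 (5.56% of them) were higher, beside 23.2% of all genes, with a median of -0.09. With vehicle and combination fitted alone, 11 were lower and 5 higher (NDUFA3, NDUFA13, NDUFB1, NDUFB2 and NDUFB4). For that fit too, no share of all genes is given. NDUFB10 read 213, 207 and 212 CPM with vehicle and 117, 108 and 126 CPM with the combination, a 1.80-fold fall (log2 fold change -0.85, SE 0.15, adjusted p = 0.00107). NDUFV2 read 171, 186 and 168 CPM against 119, 111 and 119 CPM and fell by 0.58. NDUFAB1 fell by 0.54, NDUFB7 by 0.48, NDUFS5, which faces the intermembrane space, by 0.37, and NDUFS8 by 0.35, and all 6 calls were made under every alternative. NDUFA3 read 81.9, 83.5 and 83.4 CPM against 108, 119 and 117 CPM and rose by 0.47 (adjusted p = 0.000564). NDUFB4 rose by 0.32 with an adjusted p of 0.0444, which was 0.0662 to 0.145 without single vehicle libraries or combination replicate 1 or 3.

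The enzalutamide columns cannot be read as a treatment effect on these genes, because the counting differs with the arm. Against vehicle all 13 mitochondrial genes were lower (median -1.95), as were 21 of 36 nuclear genes, with 6 higher, beside 35.6% of all genes lower and 34.7% higher. The combination against enzalutamide gave 13 mitochondrial genes higher, and 17 nuclear genes higher and 8 lower (31.4% and 30.4% of all genes). Yet 9 nuclear genes had a mean count under 0.25 of their vehicle count, namely NDUFA2, NDUFA7, NDUFA9, NDUFA11, NDUFA13, NDUFB8, NDUFC2, NDUFS7 and NDUFV2. NDUFV2 read 0.853, 0.654 and 0.406 CPM against 171, 186 and 168 CPM with vehicle, and NDUFA7 0.609, 0.467 and 0.344 CPM against 120, 122 and 131 CPM. In these columns MT-ATP8 stood at 4.08, 1.68 and 4.78 CPM while MT-ATP6 stood at 1567, 719 and 1883 CPM.
The LAPC4 table, also of whole counts, had 7 of those 9 nuclear genes at under 0.25 of their LNCaP mean (all but NDUFA2 and NDUFS7). The limit of 0.25 was set after the counts had been seen. Just inside it stood NDUFA9 at 12.1% and just outside NDUFB11 at 47.7% in LAPC4, and NDUFA2 at 22.9% and NDUFB7 at 57.1% in the enzalutamide columns. All 7 overlap another annotated gene on the same strand over more than 10% of their principal transcript (11.8% to 82.9%, median 67.0%), while among the other 29 nuclear genes only NDUFV1 does (16.7%). The split depends on this measure. Over all annotated exons NDUFA11 had 9.7% and the other low genes more than 10%. By that measure NDUFC1 and NDUFS3, which are not among the low genes, had 18.5% and 19.6%. NDUFA2 and NDUFS7 have no same-strand overlap, but genes on the opposite strand overlap 24.1% and 37.9% of their principal transcripts. NDUFB2, which is not among the low genes, is overlapped on the opposite strand over 83.4%. MT-ATP8, which shares 22.2% of its 207 bases with MT-ATP6, was at 0.317% to 0.546% of MT-ATP6 in LAPC4 and 0.234% to 0.260% in the enzalutamide columns, against 3.21% to 7.64% in the estimated counts. MT-ND6, which has no annotated overlap, was also under 0.25 of its LNCaP mean count in LAPC4 (22.6%). For NDUFV2 the single listed pseudogene had a mean of 105 counts in LAPC4, more than the 21.3 of the gene itself. Fold changes within a table compare columns made alike, except for the enzalutamide columns, but for the 7 genes they rest on few counts in LAPC4, and the loss of reads from genes with overlaps was not tested as a cause.

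**Figure D5:**
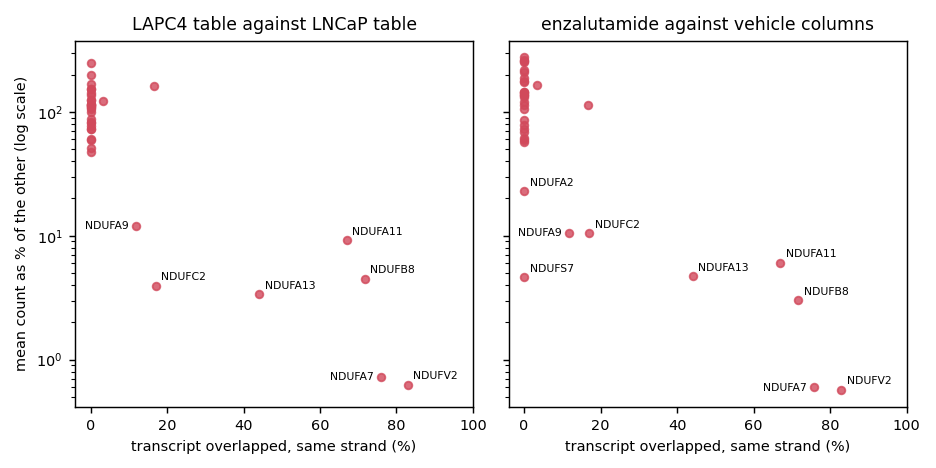
Mean count of each nuclear complex I gene in the LAPC4 table as a percentage of the LNCaP table (left), and in the enzalutamide columns as a percentage of vehicle (right), on a log scale, against the share of its principal transcript overlapped by another gene on the same strand. Named genes lie below 25%. All 7 such genes on the left have an overlap above 10%, and on the right NDUFA2 and NDUFS7 lie low with no overlap on the same strand.

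Levels can be compared between genes only per length. Per kilobase of transcript, MT-CO3 led in LNCaP control (13300 CPM per kb), LNCaP OC2 OE (14160), shCon (4786) and vehicle (13530), MT-CO1 in shOC2 (5311) and the combination (12520), and MT-CO2 in LAPC4 vector (13370). MT-ND6 was lowest in all 4 groups of the LNCaP table, with 790 CPM per kb in control. In LAPC4 the lowest was MT-ATP8 with vector, at 102 CPM per kb, and MT-ND6 with OC2 OE, at 49.5 CPM per kb. Both genes had low counts in the LAPC4 table, which was counted in another way, so these values are not to be set against those of LNCaP. The median mitochondrial gene stood 91.7 times as high per kilobase as the median nuclear complex I gene in LNCaP control, 75.8 times in OC2 OE, 31.5 times in shCon and 25.9 times in shOC2. In LAPC4 it stood 120 times as high with vector and 47.4 times with OC2 OE. These ratios too are to be read within a line, because of the difference in counting. NDUFB4 was the highest nuclear member per kilobase in control (508 CPM per kb), shCon (389) and shOC2 (632), and NDUFB7 in OC2 OE (299).
Nuclear copies of mitochondrial genes may take some of the same reads, which was not tested. MTATP6P1 is 98.5% identical to MT-ATP6 over 681 bases and held 11.9% to 16.4% as many counts in every library. MTND2P28, 98.4% identical to MT-ND2, held 2.15% to 3.04% as many in the estimated counts but 0.263% to 0.379% in the whole counts, and MTCO1P12, 98.7% identical to MT-CO1, held 0.157% to 0.548% in the LNCaP and LAPC4 tables. Reads of these pairs cannot be told apart with certainty. MTCO2P12, whose identity to MT-CO2 was not measured, held a mean of 0.0330% as many counts in LNCaP control and 0.0321% in OC2 OE. In shCon it held 0.211% and in shOC2 0.223%. From a low level (2.72 CPM in control), it was higher in shCon by 0.87 (adjusted p = 0.00386 in edgeR), while MTATP6P1, MTND2P28 and MTCO1P12 were lower.

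Other nuclear genes of respiration were read from lists beside complex I. The counts for LAPC4 stand beside 32.1% of all genes higher and 29.0% lower. In LAPC4 OC2 OE, 6 of 11 nuclear complex IV subunits were higher and none lower (COX7B, a small subunit, by 0.75, COX6A1 by 0.52 and COX5B by 0.42), as were 7 of 15 ATP synthase subunits with 3 lower (the largest rise was ATP5PB, of the stalk, by 0.55). TFAM, which packages mitochondrial DNA and starts its transcription, rose by 0.93, from 63.2 to 120 CPM, while the 13 mitochondrial genes fell. MGME1, an exonuclease of mitochondrial DNA, rose by 0.72 and RNASEH1 by 0.58, and PPARGC1A, a coactivator of mitochondrial genes, fell by 2.63 from a mean of only 1.68 CPM. Over the 20 genes of mitochondrial transcription and DNA maintenance, 8 were higher and 6 lower.
In LNCaP OC2 OE, where 31.6% of all genes were higher and 29.3% lower, the same list had 4 higher and 3 lower, among them SSBP1, the mitochondrial single-strand DNA binding protein, by -0.72 and the termination factor MTERF1 by -0.76. Of 17 complex I assembly factors 4 were higher and 7 lower. FOXRED1 rose by 1.01, from 72.3 to 147 CPM, and NUBPL, which delivers iron-sulfur clusters, fell by 0.64. In LAPC4 these 2 went the other way, FOXRED1 falling by 0.44 and NUBPL rising by 0.98. In shOC2, 9 of 20 mitochondrial ribosome proteins were lower (MRPL2 by -0.90) and 1 higher, beside 26.8% and 27.3% of all genes, while MTERF4, which acts in mitochondrial ribosome assembly, rose by 1.53.
Under the combination 16 of 20 mitochondrial ribosome proteins were lower and 1 higher (median -0.51, MRPS12 by -0.94), and 12 of the 18 genes tested for mitochondrial RNA processing were lower and 1 higher. The latter included PNPT1, of the mitochondrial RNA degrading machinery (-0.91), and LRPPRC (-0.85) and SLIRP (-0.81), partners that stabilise mitochondrial messengers. LRPPRC went from 185 to 103 CPM. ATP synthase subunits were lower in 8 of 15 and complex III subunits in 6 of 9, with none higher. Of all genes, 23.6% were lower and 23.2% higher. NDUFAF4, an assembly factor of complex I, rose by 1.43, from 25.9 to 69.9 CPM.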

How the data were processed

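RNA was measured in 23 libraries, whose groups come from the sample titles. Per the submitters' processing notes, FastQC 0.9.0, Bowtie2 and hg38 were used. For the counter and the annotation, no source used here gives a name. The authors deposited whole read counts for LAPC4 and for the enzalutamide columns. For the other LNCaP columns the authors deposited estimated counts, also called expected counts, which were rounded to whole numbers here. Repeated symbols of the drug table were summed. The enzalutamide columns could not be matched one by one to samples and were used as members of their group.

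Each comparison was fitted over all genes with edgeR 4.0.16 in R 4.3.3 (TMM scaling, filterByExpr, quasi-likelihood F-test, Benjamini-Hochberg adjustment over all genes tested, threshold 0.05), the 3 drug arms in 1 fit. All 49 genes passed the filter in every comparison. Standard errors come from the F statistic. Alternatives were DESeq2 1.42.0 size factors and Wald test, no filter, scaling without the mitochondrial genome, a replicate block, the pair of arms alone, and leaving out each library. The replicate block was fitted to the compared groups alone, so without the enzalutamide columns. The procedure was tested on simulated counts. Members and gene lists were chosen with earlier results of these data known. The named nuclear genes are up to 6 called rises and 6 called falls per comparison whose libraries do not overlap, and those called in opposite directions. From each other list, up to 3 called genes with the largest change could be named. Coordinates and overlaps are from GENCODE 29 on hg38, identities from global alignments with Biopython 1.88, and promoters from RefSeq.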

Additional observations from a re-analysis of the deposited data

Results flagged for a closer look

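The effect of OC2 overexpression differed between LAPC4 and LNCaP, by an interaction term in edgeR, for 12 mitochondrial and 18 nuclear genes. The nuclear ones were 11 more positive in LAPC4 and 7 more negative (30.6% and 19.4% of the 36), near the 25.4% and 24.1% of all 19633 genes. The difference in log2 fold change (LAPC4 minus LNCaP) was -1.49 for MT-ND1, -0.81 for MT-ND2, -0.47 for MT-ND3, -1.68 for MT-ND4, -1.38 for MT-ND4L, -1.50 for MT-ND5 and -1.14 for MT-ND6. It was -1.32 for MT-CYB, -1.14 for MT-CO1, -1.35 for MT-CO2, -1.27 for MT-CO3 and -1.02 for MT-ATP6. Nuclear genes called in opposite directions in the lines were NDUFB5 (0.89), NDUFB9 (0.63), NDUFV1 (-0.66) and NDUFA13 (-1.50), the last with few counts in LAPC4. For genes picked in this way the difference is built from the same effects, so it is no separate evidence. The 2 lines also differ in medium, added androgen, counting and number of libraries, and the part of each in the difference was not tested.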

How the results depend on the processing

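No called gene changed direction under any alternative, while the mitochondrial medians near 0 changed sign without single libraries (-0.07 to 0.01 for LNCaP OC2 OE, -0.10 to 0.14 for shOC2). All 13 mitochondrial calls in LAPC4, in shCon against control and in OC2 OE against shCon were made under every alternative, scaling without the mitochondrial genome included. Without the low-count filter the nuclear calls of LNCaP OC2 OE were 13 in place of 20, those of OC2 OE against shCon 15 in place of 24, and the mitochondrial calls of shOC2 against shCon 0 in place of 3. Leaving out single libraries gave 8 to 20 nuclear calls for LNCaP OC2 OE, 14 to 19 for OC2 OE against shCon, 12 to 22 for LAPC4 and 10 to 13 for shOC2, and 0 to 6 mitochondrial calls for shOC2. For the combination against vehicle the 0 mitochondrial calls became 11 with the pair of arms alone, and 9 with that pair blocked by replicate. They became 1 with DESeq2's Wald test, with DESeq2's size factors or with no filter. Same-numbered libraries correlated between -0.10 and 0.12 in their deviations from their group means. With 2 libraries in a group, the values for the same and the other number are equal and opposite by construction. Such weak values do not settle whether the numbers pair the libraries. The replicate block moved no other count of calls by over 1.5 times, and the cause of these moves was not tested. NDUFV2, NDUFA7 and 5 other nuclear genes rest on few counts in LAPC4, although its libraries hold the most counts of the 3 tables, so their precision is low there. Of the single values, 234 lost and 75 gained a call under an alternative.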
